A study of Mus musculus with 14 samples.

Results

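The clustered replication-dependent histone genes were taken as all protein-coding genes of the GENCODE M21 annotation of the mouse genome (build mm10, GRCm38.p6) whose symbols start with Hist1h, Hist2h, Hist3h or Hist4h. This gave 67 of 21938 protein-coding genes. They comprised 6 genes for the linker histone H1, 18 for H2A, 18 for H2B, 12 for H3 and 13 for H4. The Hist1 cluster on chromosome 13 held 54 of them, the Hist2 cluster on chromosome 3 held 10, the Hist3 cluster on chromosome 11 held 2, and Hist4h4 stood alone on chromosome 6.

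H2A, H2B, H3 and H4 form the protein core around which DNA is wrapped in the nucleosome, and H1 binds the DNA that enters and leaves it. The clustered genes supply these proteins in S phase, when newly made DNA has to be packaged. They have no introns in their usual form, and their mRNAs end in a conserved stem-loop instead of a poly(A) tail. Trimethylation of lysine 4 of histone H3 (H3K4me3) marks the promoters of transcribed genes, usually on the nucleosomes on either side of the transcription start site (TSS).

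H3K4me3 had been mapped by ChIP-seq in immortalised mouse embryo fibroblasts (iMEF) in which exon 4 of the floxed Ash2l alleles had been deleted by an inducible Cre-ER and which lived on a lentiviral human ASH2L fused to FKBP12F36V. ASH2L belongs to the enzyme complexes that methylate H3K4, and the compound dTAG leads to degradation of the fusion protein. The 12 H3K4me3 libraries formed 6 groups of 2, untreated cells (called WT in the labels although they carry the same deletion and fusion protein) and cells after 30 min, 2 h, 4 h, 8 h or 16 h of dTAG, and 2 input libraries came from untreated cells and cells treated for 16 h. Of the clones established in the study, NG3 is the one named for the ChIP-seq, so the positions describe a single clone. The data used here are the list of 25431 peaks pooled over the H3K4me3 libraries and a list of 32965 putative enhancers of control cells. They are positions without a score or a value per library, so the reads behind a peak are unknown, no value has a replicate error, no time points were compared and no test was run. Comparisons between groups of genes are therefore given as values, and the lack of a peak says only that the list holds none, not that a gene was unmarked.

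All 10 fibroblast markers examined, among them Col1a1, Vim and Twist1, had a peak within 1 kb of a TSS. Their widest peaks ran from 382 bp at Col3a1 to 3018 bp at Prrx1. The share of genes with a peak over all protein-coding genes was 59.1%. Of 10 markers of other cell types, 2 had one, the epithelial genes Epcam (724 bp) and Cdh1 (602 bp), while the blood, endothelial, pluripotency and liver markers had none.

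Promoter sequences of histone genes with and without peaks are shown first, read from GRCm38.p6 and the RefSeq promoters of that build. Capitals mark the TATA box (TATAAA), the CCAAT box (CCAAT), the octamer of H2B promoters (ATTTGCAT) and the AC box of H1 promoters (AAACACA), on either strand. The first sequence lies between the RefSeq starts of the head-to-head genes Hist1h2bl and Hist1h2ai (chr13:21716184-21716411, plus strand), where peaks flanked the shared promoter, and it holds 4 CCAAT boxes. The second lies between Hist1h2bq and Hist1h2ao (chr13:21810200-21810366, plus strand), a pair without a peak that is present a second time in the genome, and it holds 2 CCAAT boxes. The other sequences are the 250 bases before the RefSeq starts of Hist1h1d (chr13:23554782-23555031, plus strand), Hist1h1t (chr13:23695561-23695810, plus strand) and Hist1h2ba (chr13:23934157-23934406, minus strand).
Hist1h2bl and Hist1h2ai: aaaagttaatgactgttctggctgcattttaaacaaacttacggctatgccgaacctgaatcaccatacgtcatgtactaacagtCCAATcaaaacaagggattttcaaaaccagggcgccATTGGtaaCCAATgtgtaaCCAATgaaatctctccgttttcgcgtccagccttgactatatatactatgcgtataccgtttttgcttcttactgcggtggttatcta
Hist1h2bq and Hist1h2ao: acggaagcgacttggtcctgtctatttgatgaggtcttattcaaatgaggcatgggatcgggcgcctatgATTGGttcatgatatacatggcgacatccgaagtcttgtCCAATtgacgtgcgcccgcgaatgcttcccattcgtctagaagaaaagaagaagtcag
Hist1h1d: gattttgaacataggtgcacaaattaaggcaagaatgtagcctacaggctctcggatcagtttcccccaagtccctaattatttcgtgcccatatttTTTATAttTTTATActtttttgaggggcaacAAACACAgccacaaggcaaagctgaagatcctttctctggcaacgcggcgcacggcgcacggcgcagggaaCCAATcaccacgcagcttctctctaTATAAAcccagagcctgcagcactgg
Hist1h1t: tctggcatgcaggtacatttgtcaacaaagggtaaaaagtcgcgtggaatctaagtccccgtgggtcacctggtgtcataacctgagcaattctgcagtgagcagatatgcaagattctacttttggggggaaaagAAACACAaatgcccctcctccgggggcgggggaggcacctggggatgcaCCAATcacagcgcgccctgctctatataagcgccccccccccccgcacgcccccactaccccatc
Hist1h2ba: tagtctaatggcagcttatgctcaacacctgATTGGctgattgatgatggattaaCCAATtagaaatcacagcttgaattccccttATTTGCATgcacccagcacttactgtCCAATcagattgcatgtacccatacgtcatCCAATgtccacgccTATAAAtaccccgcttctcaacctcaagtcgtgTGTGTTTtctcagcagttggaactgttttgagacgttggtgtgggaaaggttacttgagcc

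All 5 windows hold a CCAAT box, those of genes with and without a peak alike, and none of the searched motifs contains another. The window of Hist1h1d, an H1 gene whose coding sequence lay under a peak, holds 1 AC box and 3 matches to TATAAA. Of these matches, 1 is on the strand of the gene and 2 are on the other strand. The window of Hist1h1t, the H1 gene of the testis, holds 1 AC box and no exact match to TATAAA, the only form of the TATA box searched. The window of Hist1h2ba, the testis form of H2B, holds 1 TATA box, 1 octamer, 1 AC box and 4 CCAAT boxes. Across the 62 histone genes with a RefSeq promoter (250 bases before to 50 after the start), CCAAT was found at 53 (85.5%), against 42.1% of 16821 other protein-coding genes. It was found at all 6 H1, 18 H2A, 16 H2B and 10 H3 promoters read, and at 3 of 12 H4 promoters. TATAAA was found at 35 of 62 (56.5%), against 14.4% of the other genes. The octamer was found at 7 of 18 H2A and 7 of 16 H2B promoters and at no H1, H3 or H4 promoter, against 1.83% of the other genes. The AC box was found at 5 of 6 H1 promoters, against 7.14% of the other genes. The 9 genes without a peak held CCAAT in all 9 promoters and TATAAA in 4. Since H2A and H2B genes lie head to head, many of their windows share bases.

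The 3′ stem-loop was searched as a hairpin of 16 bases, with a stem of 6 bases starting with GG and a loop of 4 bases starting with TT, in the 150 bases after the stop codon. It was found at 63 of 67 histone genes (94.0%), at a median of 31 bases after the stop codon (range 22 to 59), and at 11 of 21871 other coding genes (0.0503%). Within 150 bases of the annotated gene end it was found at 37 histone genes, since several gene models end elsewhere. The genes without a match were Hist1h2an, Hist1h3g, Hist1h4a and Hist2h2be. The sequences are given as DNA with the stem in capitals, since they show that genes without a peak keep the same element.
Shared by 41 genes of types H1, H2A, H2B and H3: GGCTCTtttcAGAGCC
Shared by 9 genes: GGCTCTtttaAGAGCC
Shared by 8 H4 genes: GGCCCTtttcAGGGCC
Shared by 2 H4 genes, Hist1h4i and Hist2h4: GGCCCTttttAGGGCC
Shared by 2 H4 genes, Hist1h4j and Hist1h4b: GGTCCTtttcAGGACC
Found at Hist2h2ac: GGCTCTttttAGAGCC
The H4 genes thus carried stems of their own. Of the 41 genes with the most frequent form 34 had a peak, and of the 9 with the next form 7 had one, beside 58 of all 67 histone genes (86.6%) and 59.1% of all protein-coding genes.

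A peak lay within 1 kb of a TSS at 58 of the 67 histone genes (86.6%, 95% Wilson interval 76.4 to 92.8%). The background was 59.1% of all 21938 protein-coding genes. The order of these shares turned when the peak had to contain a TSS, with any annotated TSS of a gene counting. The shares were then 50.7% of the histone genes and 55.5% of all protein-coding genes. By type, 12 of 12 H3 genes and 13 of 13 H4 genes had a peak, as did 15 of 18 H2A, 14 of 18 H2B and 4 of 6 H1 genes. By cluster, the count was 46 of 54 in Hist1, 10 of 10 in Hist2 and 1 of 2 in Hist3, and Hist4h4 had a peak. The intervals cover counting error only, and the genes of a cluster are neighbours that share peaks. Among other single-exon coding genes of up to 2500 bp, 164 of 979 (16.8%) had a peak, and among the cytosolic ribosomal protein genes 80 of 83 (96.4%).

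The distances around the 1 kb limit left a gap. The farthest nearest peaks among genes with a peak were 372 bp from Hist1h3f, 426 bp from Hist1h4m, 449 bp from Hist2h2aa2 and 469 bp from Hist1h4n. The closest among genes without one were 1595 bp from Hist1h1d, 1707 bp from Hist1h2ao, 1780 bp from Hist1h2ap and 1975 bp from Hist1h2bq. No histone gene therefore had its nearest peak between 469 and 1595 bp from a TSS.

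The 9 genes without a peak fell into 3 kinds. Hist1h2bq, Hist1h2ao, Hist1h2ap and Hist1h2br form 2 head-to-head H2A and H2B pairs in a duplicated stretch of the Hist1 cluster. The 2001 bases centred on the start codon did not differ at any position between Hist1h2bq and Hist1h2br, nor between Hist1h2ao and Hist1h2ap. Of the sequences of 75 bases (75-mers, the read length of the sequencing kit) that start within 1 kb of the annotated start of these 4 genes, 0% occurred only once in the genome, so a read from one copy could not be placed by sequence alone. Whether this bears on the missing peaks was not tested. The nearest peaks lay beside the neighbouring H4 genes, 1975 bp from Hist1h2bq and 2016 bp from Hist1h2br.

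Hist1h1t, Hist1h2ba and Hist1h2aa, which are known as the testis forms of H1, H2B and H2A, had no peak in these fibroblasts. The share of unique 75-mers was 100% at Hist1h1t and 94.8% at the head-to-head pair Hist1h2ba and Hist1h2aa. The nearest peak was 2176 bp from Hist1h1t, at the H4 gene Hist1h4c, while that pair had none for 169759 bp and 170065 bp. The ratio of observed to expected CpGs in the 1001 bases around the start was 0.438 at Hist1h1t, 0.681 at Hist1h2ba and 0.649 at Hist1h2aa. The median over the 58 histone genes with a peak was 0.880, with a range of 0.521 to 1.10. Other coding genes had a median of 0.726 with a peak and 0.197 without one. The duplicated genes without a peak had high ratios, 0.926 at Hist1h2bq, 0.929 at Hist1h2ao, 0.940 at Hist1h2ap and 0.934 at Hist1h2br. Hist1h1d, also without a peak, had 0.115 around its annotated start. Whether the ratio bears on the missing peaks was not tested.

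The other genes without a peak were Hist3h2ba and Hist1h1d. Hist3h2ba, the H2B gene of the Hist3 cluster, had 96.3% unique 75-mers, a CpG ratio of 0.707 and its nearest peak at 4990 bp. Hist1h1d lacked a peak only at its GENCODE start. Its GENCODE model starts 1828 bases before the start codon, whereas RefSeq starts the gene 58 bases before it. A peak of 1190 bp (chr13:23554998-23556187) began 92 bp before the start codon and covered 100% of the coding sequence. With RefSeq TSSs, 59 of 67 histone genes (88.1%) had a peak, and Hist1h1d was the gene gained.

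Single peaks at the histone genes were narrower than at other genes, while peaks merged across gaps of up to 1 kb were wider. The widest peak within 1 kb had a median of 618 bp (95% interval of the median 572 to 702 bp, range 308 to 1705 bp) over the 58 genes with one. That interval treats the genes as independent, although neighbours can share a widest peak. Over the 12908 other protein-coding genes with a peak the median was 1258 bp (quartiles 912 and 1712 bp). With peaks merged, the medians were 1875.5 bp at the histone genes and 1627 bp at the other genes. Merging left 36 distinct peaks at the 58 histone genes, so some merged peaks served several neighbouring genes and are not widths per gene. Unmerged, it was 1248.5 bp at the other single-exon genes and 1803.5 bp at the ribosomal protein genes. At 18 of the 58 histone genes the widest peak was not the one that covered most of the gene's own coding sequence, or no peak covered any of it. At Hist1h2ai, for instance, it was the 1086 bp peak of Hist1h2bl, so the width of the peak covering most of the coding sequence, called the coding peak, is given by type as well.

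**Figure D1:**
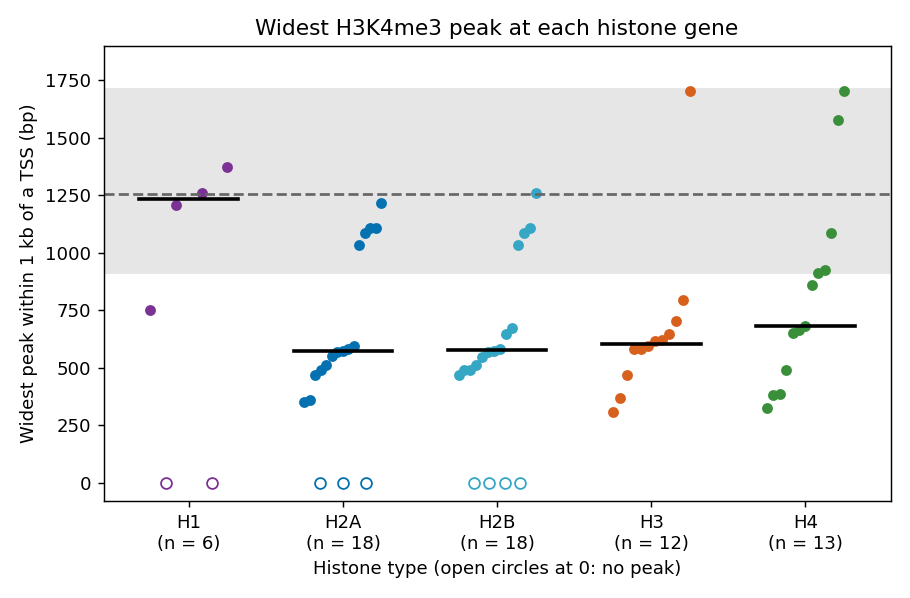
Width in bp of the widest H3K4me3 peak within 1 kb of a TSS for each of the 67 histone genes, by type. Filled circles are genes with a peak, open circles at 0 are the 9 without, black bars are medians of genes with a peak, and the dashed line and grey band are the median (1258 bp) and quartiles (912 and 1712 bp) of other protein-coding genes. Most H2A, H2B and H3 genes sit below the band, and 3 of the 4 H1 genes with a peak lie within it.

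The H1 genes, which have the longest coding sequences (median 648 bases), had the widest coding peaks, with a median of 1235 bp over the 4 genes with a peak within 1 kb. Hist1h1c had the widest at 1375 bp, Hist1h1e followed with 1260 bp and Hist1h1b with 1210 bp, and Hist1h1a had the narrowest at 753 bp. Each of these 4 genes had a single peak, which covered the whole coding sequence and began 48 to 146 bp before the start codon. The share of unique 75-mers was between 94.8 and 100% at the H1 genes.

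The H2A genes (median coding length 390 bases) and H2B genes (378 bases) had median coding peaks of 567 and 575 bp. The widest peak within 1 kb of an H2A gene was 1216 bp, at Hist3h2a, and the narrowest was 353 bp, at Hist2h2aa2. Among H2B genes the widest was 1260 bp at Hist1h2be and the narrowest 467 bp at Hist1h2bp. Hist1h2be takes its value from a spliced GENCODE model that starts 35168 bases before its start codon, next to Hist1h1e, and the 1260 bp peak is that of Hist1h1e. The coding sequence of Hist1h2be lay under a separate peak of 1029 bp (chr13:23584926-23585954), which covered 99.5% of it.

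The H3 genes had a median coding peak of 581 bp and the H4 genes of 862 bp, although the H4 coding sequence is the shortest (309 bases). Hist1h3a and Hist1h4a, which follow each other on the same strand, shared the widest peak of all, 1705 bp (chr13:23760695-23762399), which covered both coding sequences. The smallest values of the widest peak within 1 kb were 308 bp at the H3 gene Hist2h3b and 326 bp at the H4 gene Hist1h4n. Over the 54 histone genes with a coding peak, its width and the coding length had a Spearman correlation of -0.04, given as a description of genes that share peaks.

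The peaks followed the short genes closely. The coding sequence lay wholly under peaks at 41 of 67 histone genes, partly at 13, and at 13 not at all. Of the 13 without a covered coding base, 5 had a peak within 1 kb. By type, the whole coding sequence was covered at 5 of 6 H1, 8 of 18 H2A, 12 of 18 H2B, 6 of 12 H3 and 10 of 13 H4 genes. The median over histone genes with a peak was 82.0% of the gene's bases, against 4.12% at other protein-coding genes. It was 66.5% at the other single-exon genes and 57.0% at the ribosomal protein genes. Of coding bases, the median was 100% at the histone genes and also 100% at the other single-exon genes. It was 4.47% at other protein-coding genes and 61.8% at ribosomal protein genes. The part of gene length in these differences was not tested.

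The upstream edge of the coding peak stood near the start codon. At 40 of these 54 genes, the edge lay within 100 bp of the start codon on either side, and at 9 it lay inside the coding sequence. Among genes with the start codon inside a peak, the edge lay within 100 bp at 81.8% of 44 histone genes. The shares were 13.6% at other coding genes, 9.42% at other single-exon genes and 37.5% at ribosomal protein genes. The RefSeq start lay under 100 bases from the start codon at 61 of 67 histone genes, so an edge near the start codon is also near the TSS. That distance is not given for the other sets, and its part in the contrast with them was not tested. Downstream, the coding peak ran past the stop codon at 50 of 54, by a median of 153 bp at the genes with a peak within 1 kb. Counted from the start codon, with negative values before it, the edge lay at a median of -47 bp over the 53 genes with a peak within 1 kb. The medians by type were -61.5 bp for H1, -50.5 for H2A, -26.5 for H2B, -26 for H3 and -64 for H4. The exceptions with much longer upstream parts were the H4 genes Hist1h4a (1242 bp), which shared the peak of Hist1h3a, Hist1h4k (468 bp) and Hist1h4j (423 bp). Where the edge lay inside the coding sequence it was farthest in at the H3 copies Hist2h3c1 (309 bp) and Hist2h3c2 (306 bp).

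The bases just before the start were thus mostly free of peaks. A peak covered the position 150 bp before the RefSeq start at 8.47% of 59 histone genes, against 57.6% of 12675 other coding genes with a peak, 57.4% of 101 other single-exon genes and 50% of 80 ribosomal protein genes. At 200 bp after the start the shares were 78.0, 84.5, 89.1 and 100%. The lowest share at the histone genes was 5.08%, at 120 bp before the start. The other sets also fell towards the start, though less far. From 250 to 100 bp before it, the share went from 60.5 to 55.0% at other coding genes. It went from 62.4 to 55.4% at other single-exon genes and from 67.5 to 35% at ribosomal protein genes. A TSS lay inside a peak at 34 of the 58 histone genes with one (58.6%), against 94.0% of the other genes. The share was 79.9% at the other single-exon genes and 98.8% at the ribosomal protein genes. Any annotated TSS of a gene counted here, and genes differ in how many they have. At the RefSeq start nearest the start codon alone, the shares were 44.1% at histone genes and 76.8% at other coding genes. They were 77.2% at other single-exon genes and 73.8% at ribosomal protein genes. By type, 23.1% of H4 genes carried a peak at 150 bp before the start, 13.3% of H2A genes, and none of the H1, H2B and H3 genes. The length of the sheared ChIP fragments limits how finely such gaps can be placed.

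**Figure D2:**
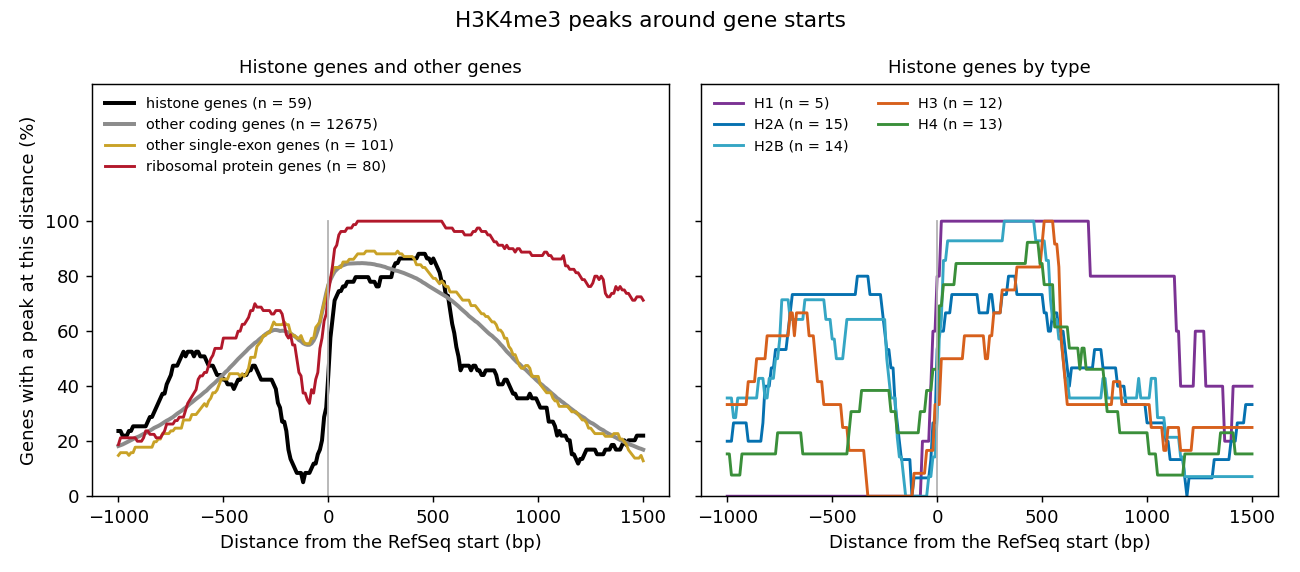
Share of genes (%) with an H3K4me3 peak at each distance (bp) from the RefSeq start nearest the start codon, with positive distances in the direction of transcription. Left, histone genes (black), other coding genes (grey), other single-exon genes (yellow) and ribosomal protein genes (red), all limited to genes with a peak; right, the histone types. The black line falls to 5.08% at 120 bp before the start. The H2A, H2B and H3 lines rise again farther upstream, and the H4 line does so to a lesser height.

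The gap was also present at head-to-head pairs. The annotated starts of 26 histone genes formed 13 divergent pairs no more than 1 kb apart, of which 12 joined an H2A and an H2B gene and 1 (Hist1h2bh and Hist1h3f) an H2B and an H3 gene. Of these 13 pairs 10 had a peak, and 9 of those had separate peaks on both sides of the shared promoter, with a median of 263 bp (range 152 to 956 bp) between the peaks. In the remaining pair, Hist1h2bf and Hist1h2ad, a peak of 1035 bp covered Hist1h2bf and stopped 181 bp short of the start of Hist1h2ad, whose coding sequence had 0% under a peak. None of the 10 pairs had 1 peak over both starts. Among 684 divergent pairs of other coding genes with a peak, 305 (44.6%) had 1 peak over both starts and 330 (48.2%) had separate peaks on both sides. The histone pairs were spaced wider, with a median of 267 bases between starts against 126 in the other pairs, and the part of this spacing in the difference was not tested. At Hist1h2bl and Hist1h2ai, whose promoter is printed above, the peaks of 1086 and 794 bp stood 220 bp apart.

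Many peaks served several histone genes. The 58 genes were served by 77 distinct peaks (median width 504 bp), of which 31 (40.3%, 95% Wilson interval 30.0 to 51.4%) lay within 1 kb of 2 or more histone genes. Of the 17337 peaks near any protein-coding gene, 12.5% served 2 or more coding genes. Of the genes with peaks, 17 had 1 peak, 30 had 2, 10 had 3, and 1, the H2B gene Hist1h2bk, had 4. Having 2 or more was the case at 70.7% of them, against 40.2% of other coding genes and 68.8% of the ribosomal protein genes. The 3 peaks that served 3 histone genes were a peak of 794 bp at Hist1h2bl, Hist1h2ai and Hist1h3h (chr13:21716407-21717200), one of 297 bp at Hist1h4i, Hist1h2ag and Hist1h2bj (chr13:22042345-22042641), and one of 1107 bp at Hist2h2ab, Hist2h2ac and Hist2h2be (chr3:96219774-96220880), which also lay within 1 kb of a start of Bola1.

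Several histone genes have near-identical copies elsewhere in the genome. The median share of unique 75-mers within 1 kb of the gene start was 84.0% over the 67 histone genes (quartiles 73.8 and 94.0%), against 100% over the other coding genes, which were read at every 10th base. With all genes read so, among other coding genes with under 5% unique 75-mers, 5 of 447 (1.12%) had a peak, against 62.6% of those with 75% or more. At the histone genes the counts were 0 of 4 and 39 of 44. The 3 histone genes between 5 and 25% and the 16 between 25 and 75% all had a peak.

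**Figure D3:**
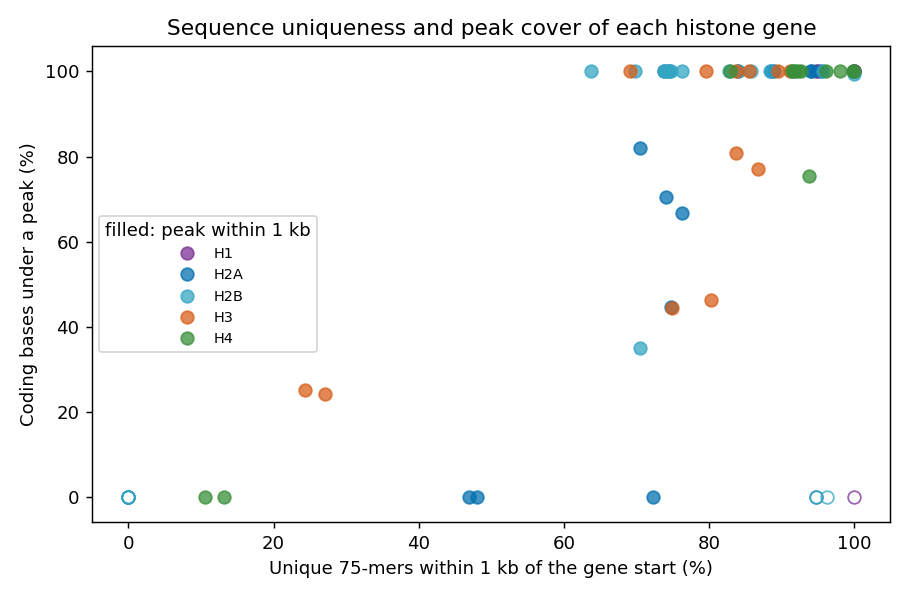
Share of coding bases under an H3K4me3 peak (%) against the share of 75-mers within 1 kb of the gene start that occur once in the genome (%), for the 67 histone genes, coloured by type; filled circles had a peak within 1 kb of a TSS and open circles had none. The 4 genes at 0% unique have no covered base, the 6 genes between 10.6 and 48.0% have 25% or less covered, and open circles at the right include the testis genes and Hist3h2ba.

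At the partly unique copies most of the coding sequence lay outside the peaks. The H4 genes Hist1h4m and Hist1h4n, whose coding sequences do not differ, had 10.6 and 13.1% unique 75-mers. Peaks of 382 and 326 bp lay 426 and 469 bp from their starts, downstream of the coding sequence, and 0% of that sequence was covered. The coding sequences of Hist2h2aa1 and Hist2h2aa2 are identical as well, as are those of Hist2h3c1 and Hist2h3c2. The H2A copies had 47.0 and 48.0% unique 75-mers and 0% of coding bases under a peak, and the H3 copies 27.1 and 24.4% and 24.3 and 25%. The part that unplaced reads play in this was not tested.

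**Figure D4:**
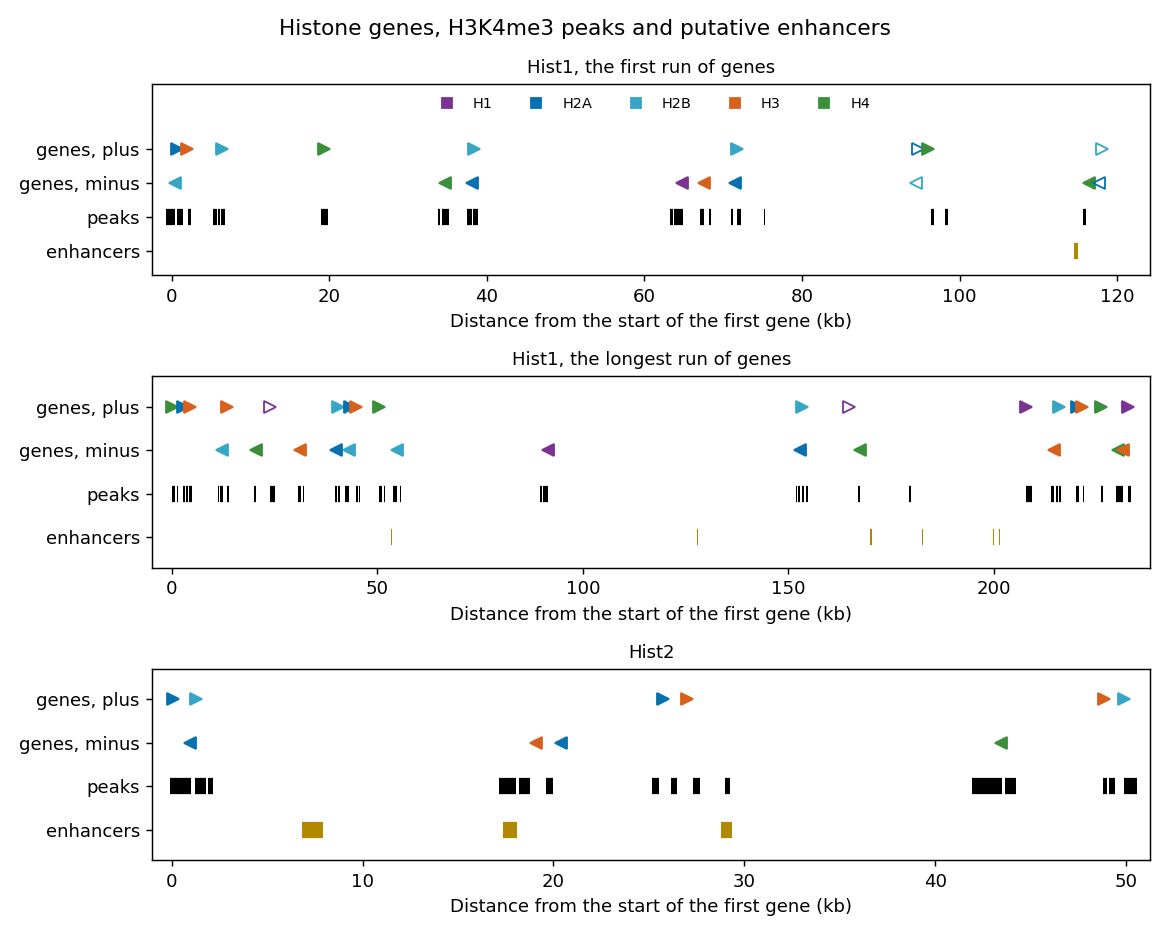
Maps of 3 runs of histone genes, with distance from the start of the first gene (kb) on the horizontal axis. Arrowheads mark start codons, on an upper row for the plus strand and a lower row for the minus strand, coloured by type and open at genes without a peak; black bars are H3K4me3 peaks and brown bars putative enhancers, drawn to scale. Peaks cluster at the genes, and the open arrowheads near the right end of the top map are the duplicated pairs.

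In the Hist2 cluster all 10 genes had a peak. Hist2h4 had the widest, 1577 bp, which covered its coding sequence and began 70 bp before the start codon. The neighbours Hist2h2ab and Hist2h2ac lay wholly under the shared 1107 bp peak, and the coding sequence of Hist2h2be under one of 596 bp that stood 201 bp from it. The coding sequence of Hist2h2bb lay under a peak of 674 bp, and Hist2h3b had 80.9% of its coding bases under peaks, the widest of them 308 bp. For the 4 copies in the middle of the cluster the widest peaks were 581 bp (Hist2h3c2), 353 bp (Hist2h2aa2), 361 bp (Hist2h2aa1) and 367 bp (Hist2h3c1). In the Hist3 cluster, Hist3h2a had a peak of 1216 bp from 87 bp before its start codon, while Hist3h2ba had none. An annotated model of Trim17, on the same strand, starts at the same base as Hist3h2a, so this peak counts for both. Hist4h4 had a peak of 1087 bp from 137 bp before its start codon and a second of 282 bp.

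The Hist1 cluster is broken into 4 runs of genes by gaps over 100 kb. They held 18, 5, 29 and 2 genes, of which 14, 5, 27 and 0 had a peak. Between and within the runs lay 49 other coding genes, of which 10 had a peak, against 59.1% of all protein-coding genes. Of these 49, 36 were vomeronasal receptor genes, which serve pheromone detection, and 2 of the 36 had a peak (Vmn1r201 and Vmn1r210). The 4 Slc17a transporter genes had none, while the zinc finger genes Zfp184 and Zfp322a and the butyrophilin genes Btn1a1 and Btn2a2 had one, as did Hfe, the iron regulator between the histone genes. The span also holds 77 tRNA genes, of which 65 (84.4%) had a peak within 1 kb, against 187 of 326 (57.4%) elsewhere. Of the 139 peaks in the Hist1 span, 59 lay within 1 kb of a histone gene TSS, 58 others within 1 kb of a tRNA gene and 10 at other coding genes. The remaining 12 include the peaks over the coding sequences of Hist1h1d and Hist1h2be, which lie farther from the GENCODE starts.

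Putative enhancers were unevenly spread over the clusters. The spans from the first to the last gene of each cluster held 21, 18 in Hist1 (8.11 per Mb) and 3 in Hist2 (59.7 per Mb over 50268 bases), against 12.1 per Mb over all chromosomes. The Hist1 span includes the long stretches between its runs of histone genes. Within the runs of 18, 5, 29 and 2 genes the densities were 8.21, 0, 25.7 and 0 per Mb. Of these 21, 6 lay within 3 kb of a histone gene, and at 41 of 67 genes the nearest lay over 10 kb away. The list leaves out regions within 1 kb of a TSS by its making, which takes out much of a cluster with starts this close. The nearest were 157 bp from Hist2h3c1 and 177 bp from Hist2h3c2, both of them downstream of the genes, 975 bp from Hist1h4n, and one inside the long gene model of Hist1h2be, 830 bp from its coding sequence. The enhancers beside Hist2h3c1 and Hist2h3c2, whose coding sequences do not differ, each overlapped an H3K4me3 peak.

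Genes that act with or in place of the clustered genes had peaks in every case, 42 of 42 in 3 lists. The share over all protein-coding genes was 59.1%. The 11 replication-independent histone genes, which are made outside S phase as well, had a median widest peak of 1477 bp, from 592 bp at H2afv to 2116 bp at H1fx. The 21 genes for histone gene transcription and mRNA processing, among them Npat, the activator that the cyclin E kinase switches on, and Slbp, which binds the stem-loop, had a median of 1283 bp, from 637 bp at Lsm10 to 2546 bp at Ncbp2. The 10 histone chaperone genes had a median of 1102 bp, from 857 bp at Hat1 to 2560 bp at Hira. The clustered genes' median of 618 bp was below the medians of all 3 lists, all of unmerged peaks, a difference that was not tested. It was also below the median of 1258 bp over other protein-coding genes with a peak, so the contrast is not particular to these lists.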

How the data were processed

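The lists hold H3K4me3 peaks pooled over 12 libraries and putative enhancers of control cells. Per the authors' methods, reads were trimmed, aligned with BWA to mm10 and filtered with SAMtools, replicates were merged, and narrow peaks were called with MACS2. The deposited columns are start and end positions, with 0 columns of values per sample, so no count test could be used. Peak starts count from 0 (end minus start was never below 200), and enhancer starts were taken to count from 1.

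A peak counted for a gene when any base lay within 1 kb of a GENCODE M21 TSS. At 11 of 67 histone genes the GENCODE model starts at the start codon. All 67 were matched to RefSeq genes by synonym and overlap, and 62 to a RefSeq promoter. Where a gene had several coding models, the piece nearest the usual length of its type was used. The 75-mers were counted on both strands of the whole reference. Named genes were all those without a peak, the widest and narrowest per type, all of Hist2 to Hist4, the peaks serving most genes and those nearest the 1 kb limit; Hist1h4j, Hist1h4k, Hist1h2bk, the H1 genes, the pairs and the neighbours were named after their values were seen. The members and lists were chosen with earlier results of these data known. Interval functions were tested on simulated data. Python 3.11.15, NumPy 2.4.6, SciPy 1.17.1, Numba 0.67.0 and Matplotlib 3.10.9 were used.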

Additional observations from a re-analysis of the deposited data

How the results depend on the processing

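Of 53 recomputed values for the histone genes, 44 stayed within the interval of the value reported (for counts, within 1.5 times of it) and 9 moved. Requiring the peak to contain the TSS lowered the share of histone genes with a peak to 50.7%, below the 55.5% of all protein-coding genes, and the distinct peaks to 32, and raised the median share of gene bases under a peak to 100%. Dropping peaks narrower than 500 bp left 65.7% of the genes with a peak and 39 distinct peaks. Merging peaks within 1 kb gave 36 peaks, a median widest peak of 1875.5 bp, 100% of gene bases and a median offset of the peak centre from the TSS of 42.25 bp in place of 274.25 bp, and the other coding genes' median widest peak was then 1627 bp. The share of all protein-coding genes with a peak, not among the 53, ran from 55.5 to 59.9% over these settings. Assigning each peak to the nearest TSS alone gave 80.6%. Start codons in place of TSSs gave 88.1%, and genes with at least 50% unique 75-mers 91.2% with a median of 648.5 bp; both were chosen after seeing the data. Enhancers in the spans numbered 22 when widened by 50 kb. No paired analysis was possible because neither table used here has a column for any library. The tables hold no read counts, so no precision could be given for single peaks.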
